A study of Mus musculus with 17 samples.

Results

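The regulators described here are 10 mouse genes that set or maintain the epithelial state: the grainyhead-like factors Grhl1 and Grhl2, the zinc finger repressors Ovol1 and Ovol2, the splicing regulators Esrp1 and Esrp2, the ETS factors Elf3 and Ehf, the Krüppel-like factor Klf5, and Trp63, which encodes p63. They were listed by name for this role, with earlier results of these data known, and they are 10 of the 55450 genes in the bulk table. The cells came from female FVB/NJ MMTV-PyMT mice of 10 to 12 weeks, in which the mouse mammary tumor virus promoter drives the polyoma middle T oncogene in mammary epithelium. All groups therefore share the transgene. Cells from 10 tumor-bearing mice were expanded in culture for about a month, selected against fibroblasts by growth and trypsin release, and sorted by surface EpCAM and CD44. Bulk RNA-seq covered 7 groups of 2 libraries: the mammary fat pad (MFP) primary tumor line, whose CD44 status the labels do not give, and CD44low/EpCAMhigh and CD44high/EpCAMhigh lines derived from lung, bone marrow (BM) and lymph node (LN). Within a group, the 2 libraries were separate clonal isolates from different mice, so each group rests on 2 clones. Single-cell libraries came from lung CD44high (lungH), lung CD44low (lungL) and LN CD44high (lymphH) cells, 1 library each.

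As background, GRHL factors bind and open enhancers of junction genes such as Cdh1 and claudins, and OVOL factors repress Zeb1 and other drivers of the epithelial-to-mesenchymal transition (EMT). ZEB1 in turn represses Grhl2, Ovol2 and Esrp1, so that these factors and ZEB1 form mutually inhibitory loops. ESRP1 and ESRP2 bind pre-mRNA and direct epithelial exon choice in Fgfr2, Cd44 and Ctnnd1. ELF3 and EHF belong to the epithelium-specific branch of the ETS family, KLF5 is active in proliferating epithelium, and p63 is the defining factor of basal and myoepithelial cells of the mammary gland.

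Levels are given in TPM, a share of all transcripts that is scaled for transcript length, so that genes can be compared with each other. For tests, limma was fitted to log2(TPM + 1) over 15348 genes, those that reached 1 TPM in 2 or more of the 14 libraries. All 10 regulators passed this filter, but Trp63 and Ovol2 were under 1 TPM in most libraries. A call required an absolute log2 fold change above 2 together with an adjusted p below 0.05 (Benjamini-Hochberg, over all genes tested). Fold changes below are differences of log2(TPM + 1), and they understate the change of low genes. No fold is given against a group with both libraries listed at 0.

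The sort label and the RNA did not match in the lung-derived lines. Epcam was listed at 0 in both lung CD44low libraries and at 0.23 and 0.86 TPM in lung CD44high, against 315 to 941 TPM in the 10 other libraries. Cd44 was highest in MFP, with 400 and 210 TPM, and was not called between CD44high and CD44low lines of any organ. In the single-cell libraries described further on, it had 8.51 counts per 10000 in lungL, 4.99 in lungH and 4.49 in lymphH, against the sort labels and unlike bulk RNA, where lung had 12.1 to 21.95 TPM and LN CD44high 49.0 and 52.3. Of 10 fibroblast markers, 9 were tested. As 4 of these passed the filter only through the lung CD44low libraries, no count of calls is given for that group. The summed level of the 10 was 4789 to 5230 TPM in lung CD44low, against 0.5 to 1.3 TPM in MFP. In lung CD44high the sum was 103 to 216 TPM. There 4 of the 9 were called higher than MFP, where 5.42% of all genes were called higher. In LN and BM lines the sum was 7.4 to 46.2 TPM. All 5 endothelial markers fell below the filter. Of 9 macrophage or leukocyte markers, 3 were tested. All 9 summed to 45.8 to 49.3 TPM in lung CD44low, 52.4 to 66.4 in lung CD44high and 61.25 to 104.3 in MFP. Lyz2 was called higher than MFP in lung CD44low and lung CD44high, by 5.11 ± 0.44 and 3.50 ± 0.44. Cd14 was called lower in lung CD44low (-2.72 ± 0.48). The part of cell identity in the lung results below was not tested, and in bulk RNA fewer cells of a type and less RNA per cell cannot be told apart. None of 15 genes used in every cell was listed at 0 in any library. The BM CD44low libraries stood further apart than those of any other group, with a Spearman correlation of 0.895 across genes against 0.919 to 0.975.

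The genes lie on different chromosomes of mm10, except for Ovol2 and Ehf, which both lie on chromosome 2. In GENCODE M21, Grhl1 spans chr12:24572283-24617391 on the plus strand and Grhl2 chr15:37233036-37363569 on the plus strand. Elf3 spans chr1:135253575-135258568 and Esrp1 chr4:11331933-11386783, both on the minus strand. RefSeq promoter windows of GRCm38.p6, the assembly also called mm10, were found for 3 of the 10 genes: Grhl1, Elf3 and Ovol2. The exon-free stretches before the Elf3 start and the upstream Grhl1 start are shown, and the Ovol2 window had no exon-free stretch before its start. All 3 genes were lower in all lung-derived libraries than in all others. Capitals mark an E-box (CACCTG or CAGGTG, the word that SNAIL and ZEB factors read) in Elf3 and 2 GC boxes (GGGCGG or CCGCCC, read by SP and KLF factors) in Grhl1.
Elf3 chr1:135258569-135258722, minus strand: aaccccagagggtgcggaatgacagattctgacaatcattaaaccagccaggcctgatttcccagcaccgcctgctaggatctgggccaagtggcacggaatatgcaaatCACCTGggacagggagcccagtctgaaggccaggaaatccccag
Grhl1 chr12:24572037-24572282, plus strand: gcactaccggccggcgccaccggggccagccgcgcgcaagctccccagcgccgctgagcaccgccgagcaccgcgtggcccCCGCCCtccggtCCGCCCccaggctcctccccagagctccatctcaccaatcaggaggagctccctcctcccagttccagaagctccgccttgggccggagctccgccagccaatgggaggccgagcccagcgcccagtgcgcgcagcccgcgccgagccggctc
The Elf3 E-box began at position -140 from the RefSeq start, and 17.2% of all 32851 RefSeq windows held this word on either strand in the 250 bases before the start. The GC boxes of Grhl1 began at positions -169 and -157, and 32.7% of windows held such a box. The GRHL word AACCNGTT was in 1.79% of windows and the OVOL word CCGTTA in 2.18%, and neither was in the windows of these 3 genes on either strand. The motifs do not overlap, and a match describes the letters only.

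In the lung-derived lines most of the epithelial transcription and splicing factors were at or near 0. Against MFP, 8 of 10 regulators were called lower in lung CD44low, where 18.8% of all tested genes were called and 7.62% were called lower. In lung CD44high, 8 were called lower and Trp63 higher, against 13.5% of all genes called, 8.03% lower and 5.42% higher. The median log2 fold change of the 10 was -2.95 in lung CD44low and -3.0 in lung CD44high, where the median of all tested genes was 0.00 and -0.04. These medians include genes listed at 0 in lung, whose fitted size depends on the pseudocount. These and all other comparisons with MFP share the same 2 MFP libraries.

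**Figure D1:**
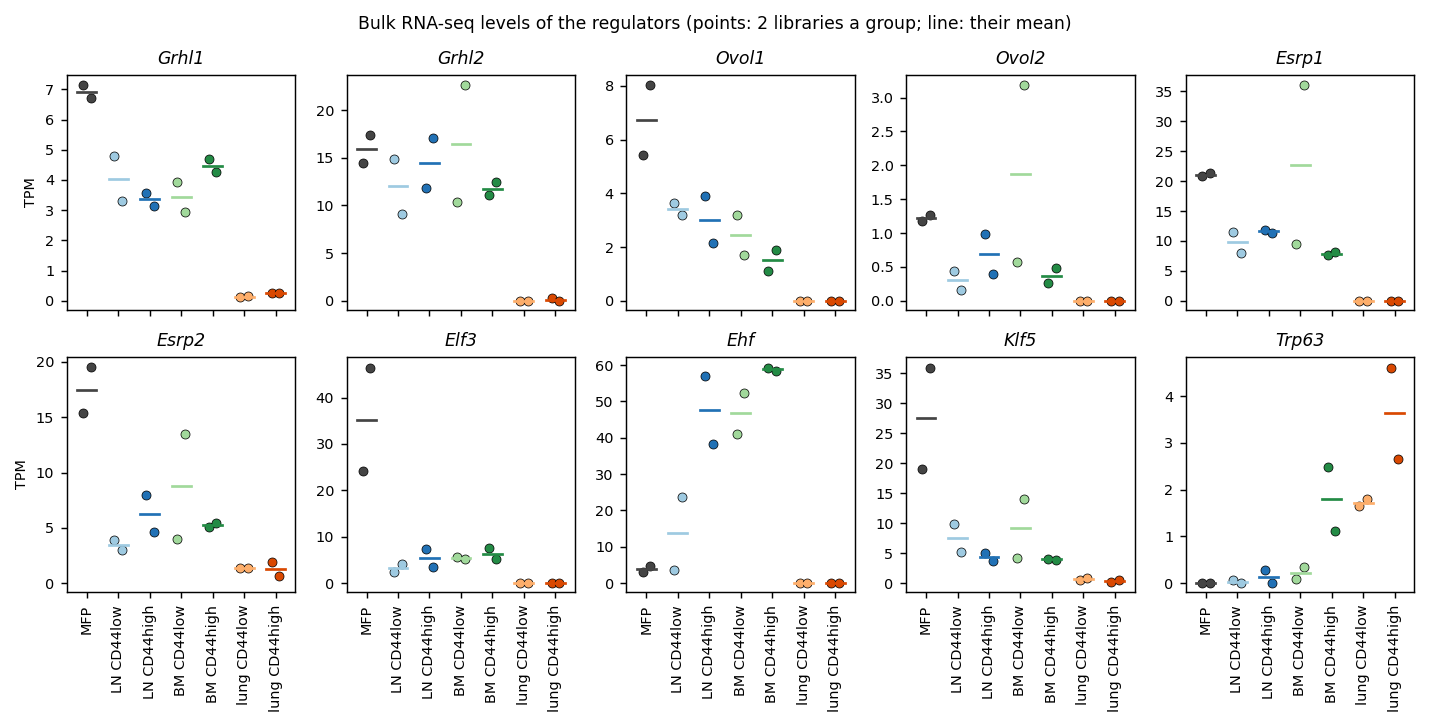
Level of each regulator in TPM (linear axis, its own scale per gene) in the 7 bulk groups, with a point for each of the 2 libraries and a line at their mean. The 4 lung-derived libraries lie at or near 0 for all genes but Esrp2 and Trp63, Ehf is lowest in MFP among the other groups, and Trp63 is highest in lung CD44high.

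Among the GRHL factors, Grhl2 was not called in LN and BM lines and fell in lung lines. It had 14.5 and 17.4 TPM in MFP, 14.9 and 9.14 in LN CD44low, 11.8 and 17.1 in LN CD44high, 10.4 and 22.6 in BM CD44low and 11.05 and 12.5 in BM CD44high. It was listed at 0 in 3 lung libraries and had 0.24 TPM in the first lung CD44high library. The 5 groups outside lung overlapped their neighbours in the order of means, and all 10 of their libraries lay above all 4 lung libraries. Grhl2 was called lower than MFP in both lung groups, with adjusted p = 1.73e-05 in lung CD44low and 3.91e-05 in lung CD44high by limma. In LN and BM its adjusted p against MFP was 0.47 to 0.966, and its fitted differences ran from -0.41 to -0.05 with a standard error of 0.38.

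Grhl1, the paralog best known from epidermal desmosomes, was low throughout and was likewise lowest in the lung lines. It had 7.14 and 6.71 TPM in MFP, 4.78 and 3.29 in LN CD44low, 3.58 and 3.13 in LN CD44high, 3.92 and 2.94 in BM CD44low, 4.68 and 4.27 in BM CD44high, 0.11 and 0.17 in lung CD44low, and 0.26 and 0.25 in lung CD44high. Both MFP libraries lay above every other library, the 4 LN and BM groups overlapped each other in turn, and the lung groups lay below all. Grhl1 fell by 2.80 ± 0.24 (SE) in lung CD44low and by 2.66 ± 0.24 in lung CD44high (adjusted p = 1.04e-05 and 2.66e-05 by limma, n = 2 libraries a group). In LN CD44high and BM CD44low it was lower by -0.87 and -0.85 with adjusted p = 0.0285 and 0.0316, which is short of the fold that a call needed.

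The OVOL factors were low in the series and were listed at 0 in every lung library. Ovol1 had 5.44 and 8.02 TPM in MFP, 3.65 and 3.18 in LN CD44low, 3.90 and 2.14 in LN CD44high, 3.20 and 1.69 in BM CD44low, and 1.12 and 1.89 in BM CD44high. MFP lay above the other groups, and the 4 LN and BM groups overlapped their neighbours. Ovol1 was called lower than MFP in both lung groups (adjusted p = 5.30e-05 and 8.49e-05), and in BM CD44high it was lower by -1.62 ± 0.32 with adjusted p = 0.00478, again short of the fold threshold. Ovol2 had 1.18 and 1.26 TPM in MFP and 0.16 to 0.98 TPM in 7 of the 8 LN and BM libraries, with 3.18 TPM in the second BM CD44low library. From the MFP level, no fall could reach a fold over 2 on the log2(TPM + 1) scale. Ovol2 was not called in any comparison of the main fit, although its adjusted p was 0.0309 in lung CD44low and 0.0373 in lung CD44high. With a pseudocount of 0.1 it was called lower than MFP in both lung groups.

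The splicing regulators behaved unequally: Esrp1 was listed at 0 in lung lines, and Esrp2 was lower but measurable. Esrp1 had 20.9 and 21.3 TPM in MFP, 11.5 and 8.06 in LN CD44low, 11.9 and 11.3 in LN CD44high, 9.46 and 36.0 in BM CD44low and 7.61 and 8.12 in BM CD44high. All 4 lung libraries were listed at 0. Apart from the second BM CD44low library, every LN and BM library lay below both MFP libraries, but none of the 4 differences was called, with adjusted p from 0.0676 in BM CD44high to 0.851 in BM CD44low. Against MFP, Esrp1 was called lower in lung CD44low (adjusted p = 4.60e-05) and lung CD44high (adjusted p = 7.46e-05).

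Esrp2 had 15.4 and 19.5 TPM in MFP, 3.86 and 3.0 in LN CD44low, 7.93 and 4.60 in LN CD44high, 3.98 and 13.5 in BM CD44low, 5.08 and 5.43 in BM CD44high, 1.35 and 1.36 in lung CD44low, and 1.92 and 0.61 in lung CD44high. MFP lay above all other libraries, and the lung libraries lay below all others. It fell by 2.96 ± 0.49 in lung CD44low and 3.08 ± 0.49 in lung CD44high (adjusted p = 0.000875 and 0.000909), and by 2.06 ± 0.49 in LN CD44low (adjusted p = 0.0199). The LN CD44low call was lost without LN CD44low replicate 2 (-1.92), without MFP replicate 1 (-2.22, adjusted p = 0.0777), without MFP replicate 2 (-1.89) and under median-ratio scaling (-1.76). The ratio of Esrp1 to Esrp2 was 1.09 and 1.36 in the MFP libraries and 1.495 to 2.98 in the 8 LN and BM libraries, so the ranges did not overlap. This ratio was looked at after the values were seen and has no test.

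Elf3 and Ehf, the related ETS factors, exchanged places between the primary tumor line and the LN and BM lines. Elf3 had 24.1 and 46.4 TPM in MFP, 2.39 and 4.09 in LN CD44low, 7.38 and 3.37 in LN CD44high, 5.70 and 5.19 in BM CD44low, and 7.59 and 5.15 in BM CD44high. Ehf had 3.08 and 4.63 TPM in MFP, 3.66 and 23.6 in LN CD44low, 56.8 and 38.2 in LN CD44high, 41.1 and 52.3 in BM CD44low, and 59.3 and 58.4 in BM CD44high. MFP was thus the highest group for Elf3, and among the groups outside lung it was the lowest for Ehf, where 1 LN CD44low library overlapped it. Elf3 was listed at 0 in all 4 lung libraries, and Ehf was listed at 0 in 3 and had 0.03 TPM in the fourth.

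Ehf rose against MFP by 3.31 ± 0.61 in LN CD44high (adjusted p = 0.00377), by 3.31 ± 0.61 in BM CD44low (adjusted p = 0.0037) and by 3.64 ± 0.61 in BM CD44high (adjusted p = 0.00196). In LN CD44low its difference was 1.16 ± 0.61 (adjusted p = 0.266), and it turned on the library: 2.36 without replicate 1 and -0.04 without replicate 2. Elf3 fell by 3.05 ± 0.41 in LN CD44low, 2.51 ± 0.41 in LN CD44high, 2.42 ± 0.41 in BM CD44low and 2.25 ± 0.41 in BM CD44high (adjusted p = 0.000736, 0.00189, 0.00223 and 0.00309). The BM CD44low and BM CD44high falls dropped below the fold threshold without MFP replicate 2 (-1.96 and -1.79), and the BM CD44high fall also under median-ratio scaling (-1.72). Both genes were called lower in the lung groups than in MFP, Elf3 with adjusted p = 5.41e-06 and 1.01e-05. For Ehf, which was already low in MFP, adjusted p was 0.0127 in lung CD44low and 0.0163 in lung CD44high, and these calls were lost when either lung library of the group or MFP replicate 2 was left out (adjusted p = 0.0566 to 0.0935).

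The ratio of Ehf to Elf3 was 0.0997 and 0.128 in the MFP libraries and 1.53 to 11.3 in the 8 LN and BM libraries, with a median of 7.76. No LN or BM library came near the MFP ratio, and the lowest of them was the first LN CD44low library. As with the ESRP ratio, this was looked at after the values were seen and has no test.

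**Figure D2:**
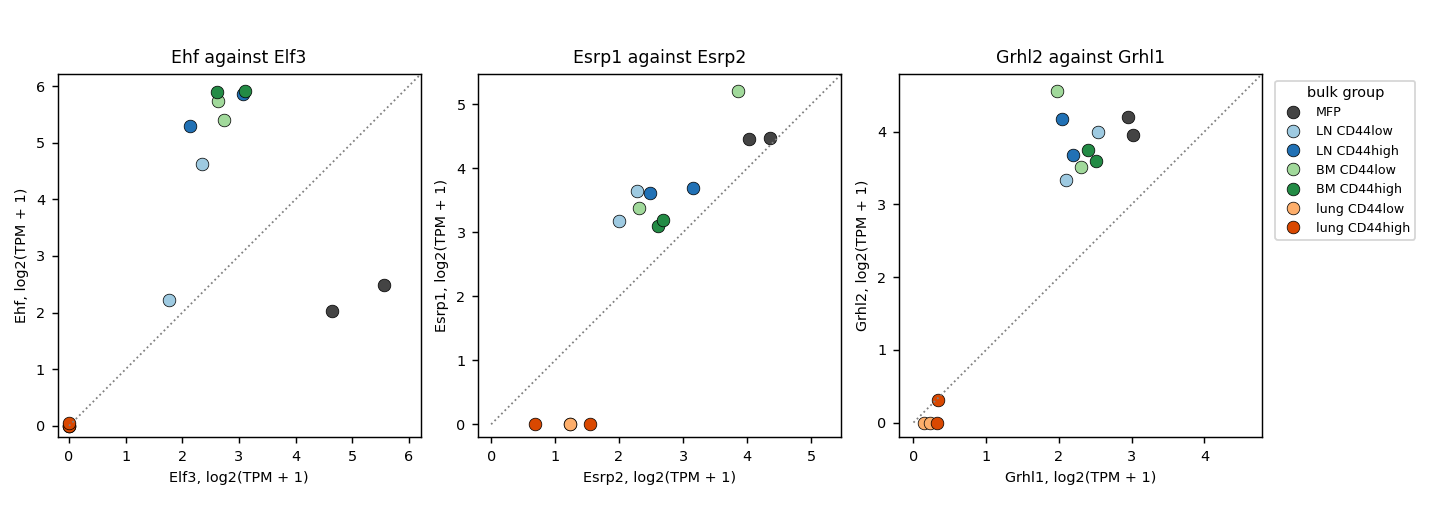
Levels of 3 pairs of related regulators in log2(TPM + 1) in each of the 14 bulk libraries, coloured by group, with a dotted line where both are equal. For Ehf against Elf3 the MFP libraries lie below the line and the LN and BM libraries above it, while the lung libraries sit near the origin, and for Esrp1 against Esrp2 the lung libraries keep Esrp2 with Esrp1 at 0.

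Klf5, a zinc finger activator of proliferation genes, was highest in MFP, intermediate in LN and BM and lowest in lung. It had 19.0 and 36.0 TPM in MFP, 9.83 and 5.20 in LN CD44low, 5.05 and 3.68 in LN CD44high, 4.19 and 14.1 in BM CD44low, 4.06 and 3.86 in BM CD44high, 0.45 and 0.78 in lung CD44low, and 0.27 and 0.53 in lung CD44high. MFP lay above all other libraries and lung below all. The fall was 2.35 ± 0.51 in LN CD44high (adjusted p = 0.00834), 2.46 ± 0.51 in BM CD44high (adjusted p = 0.0061), 4.08 ± 0.51 in lung CD44low (adjusted p = 0.000132) and 4.29 ± 0.51 in lung CD44high (adjusted p = 0.00014). The LN CD44high call was lost without LN CD44high replicate 2 (-2.17, adjusted p = 0.0601) or MFP replicate 2 (-1.91), and the BM CD44high call without MFP replicate 2 (-2.01, adjusted p = 0.0583). Median-ratio scaling put both just inside the fold threshold (-1.87 and -1.95). In LN CD44low and BM CD44low, Klf5 was lower by -1.73 and -1.62 and was not called, although it was without LN CD44low replicate 1 (-2.13) and without BM CD44low replicate 2 (-2.39).

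Trp63 was the only one of the 10 that was higher in both lung groups than in MFP. It was listed at 0 in both MFP libraries and in the second libraries of LN CD44low and LN CD44high, and had 0.06 and 0.28 TPM in their first libraries. BM CD44low had 0.09 and 0.35 TPM, BM CD44high 2.48 and 1.12, lung CD44low 1.65 and 1.80, and lung CD44high 4.61 and 2.65. Lung CD44high was above all other libraries, and BM CD44high and lung CD44low overlapped. Trp63 was called higher than MFP in lung CD44high (adjusted p = 0.000263), though without its first library the fitted value fell short of the fold threshold. In lung CD44low and BM CD44high adjusted p was 0.00242 and 0.00478 with fitted values below the fold threshold, and with a pseudocount of 0.1 it was called in both. Of 8 basal or myoepithelial markers, 5 were tested, but 2 of them (Acta2 and Mylk) passed the filter only through lung CD44low and 1 (Oxtr) only through lung CD44high, so their levels are given without a count of calls. The keratin Krt14, at 594 and 655 TPM in MFP, was listed at 0 in all 4 lung libraries, and Krt5 and Krt17 were at most 0.06 and 0.04 TPM in lung. The contractile genes went the other way in lung CD44low: smooth muscle actin Acta2 had 657 and 711 TPM there against 0.06 and 0 in MFP, and Mylk, a myosin kinase, had 64.2 and 78.8 TPM against 0.24 and 0.37. In lung CD44high they were at 1.36 TPM or less, and the oxytocin receptor gene Oxtr, listed at 0 in MFP, had 33.5 and 49.5 TPM.

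In the LN and BM lines taken by group, 2 regulators were called against MFP in LN CD44low (Elf3 and Esrp2 lower), 3 in LN CD44high and in BM CD44high (Elf3 and Klf5 lower, Ehf higher) and 2 in BM CD44low (Elf3 lower, Ehf higher). The share of all tested genes called was 4.79% in LN CD44low, 6.12% in LN CD44high, 7.16% in BM CD44low and 7.67% in BM CD44high. Median-ratio scaling left 1 regulator called in LN CD44low and 1 in BM CD44high, where it called 4.48% and 7.34% of all genes. The median difference of the 10 was -0.78, -0.84, -0.51 and -1.01 in this order of groups, beside -0.18, -0.30, -0.04 and -0.34 for all tested genes.

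The lung lines were also set against the LN and BM lines directly, the average of 2 lung groups against that of 4 LN and BM groups. Here 5 regulators were called, all lower in lung, where 12.7% of all genes were called and 5.54% were called lower: Ehf, Grhl2, Esrp1, Elf3 and Klf5 (adjusted p from 6.95e-07 for Grhl2 to 0.000226 for Klf5). The first 4 were listed at 0 in both libraries of at least 1 lung group, and the fall of Klf5 was 2.14 ± 0.31. Klf5 fell short of the fold threshold without BM CD44low replicate 2 (-1.95). Grhl1 lay on the threshold at -2.00 ± 0.15, and it was past it in 6 of the 14 fits that left a library out. Trp63 was higher by 1.33 ± 0.17 with adjusted p = 0.000117 and was not called. The median of the 10 was -2.07, against 0.20 for all genes. With a pseudocount of 0.1 in place of 1, all 10 were called, Trp63 higher and the others lower, where 23.8% of all genes were called. By adjusted p alone, a rule added after the data were seen, all 10 passed here, 5 in BM CD44low against MFP and 6 in BM CD44high against MFP, where 59.9%, 23.2% and 27.0% of all genes passed.

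CD44 status made no called difference in any regulator within an organ, but in lung most of them could not be called. There 8 of the 10 were under 1 TPM in every library of both groups, and Esrp2 was at most 1.92 TPM. For these genes a difference of log2(TPM + 1) could not exceed 2 in lung. By limma, 0 of 10 were called between CD44high and CD44low lines in LN, BM or lung, where 0.208%, 0.104% and 11.3% of all genes were called. At an unadjusted p under 0.05 there was 1 in LN (Ehf), 3 in BM (Esrp1, Ovol2 and Trp63) and 1 in lung (Trp63), where 10.1%, 7.4% and 40.8% of all genes passed that rule. In LN, Ehf was 2.15 ± 0.61 higher in CD44high (adjusted p = 0.23). This difference was called at 3.35 without LN CD44low replicate 2, the library with 23.6 TPM, where 0.655% of all genes were called. In BM, Trp63 was 1.16 ± 0.28 higher in CD44high (adjusted p = 0.379), and Esrp1 was -1.15 ± 0.48 lower (adjusted p = 0.624), a difference called at -2.06 without BM CD44low replicate 1. In that fit 6.36% of all genes were called, so the share of 0.104% rests on this library. In lung, Trp63 was 0.73 ± 0.28 higher in CD44high (adjusted p = 0.0782). The CD44 difference in lung was also set against that in LN and in BM, and 0 of 10 regulators were called in either, where 10.4% and 8.66% of all genes were called. At an unadjusted p under 0.05 there was 1 against LN (Ehf) and 0 against BM, where 32.7% and 27.7% of all genes passed. For the genes that low in lung, these contrasts rest mainly on the LN or BM difference.

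The genes that these factors are known to activate were followed through a list of 21 epithelial genes, 20 of which were tested. Against MFP, 20 of 20 were called lower in lung CD44low and 18 in lung CD44high. In LN CD44low 11 were called lower, in LN CD44high 9, in BM CD44low 9 and in BM CD44high 10. None was called higher. Of all 15348 tested genes, 7.62% and 8.03% (1170 and 1233) were called lower in lung CD44low and lung CD44high. In the LN and BM groups, in the order above, 417, 565, 487 and 619 of all genes were called lower. The median difference of the 20 was -7.11 in lung CD44low and -7.00 in lung CD44high. In LN and BM it ran from -2.25 to -1.76, again with genes listed at 0 among the 20. In LN and BM lines part of the list was lower where Grhl2 was not called: Cldn7, a claudin, went from 428 and 321 TPM in MFP to 0.19 and 0.22 TPM in LN CD44low, and Ap1m2, an adaptor subunit for sorting to the basolateral membrane, had 109.9 and 144.9 TPM in MFP and was listed at 0 in both BM CD44high libraries. Cldn3, another claudin, was at 431 TPM or more in every LN and BM library and was at most 0.16 TPM in lung. Lung CD44high had 186 and 154 TPM of Spint2, a Kunitz protease inhibitor, against 652 and 481 TPM in MFP, and 184 and 220 TPM of Cd24a, a surface glycoprotein, against 586 and 452 TPM. Both were higher than in lung CD44low, by 4.41 ± 0.24 and 4.86 ± 0.30 (adjusted p = 5.58e-07 and 1.28e-06).

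**Figure D3:**
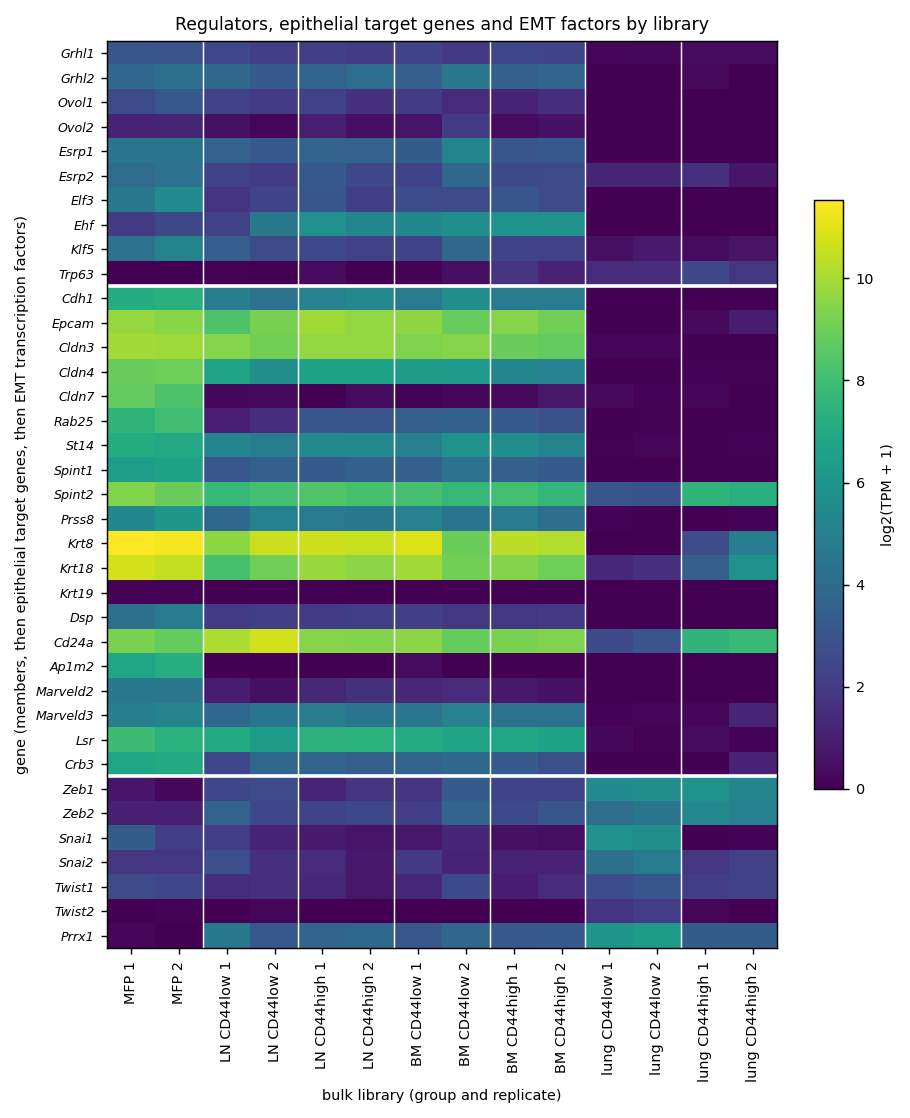
Level in log2(TPM + 1) of the 10 regulators (top), 20 of the 21 epithelial target genes (middle) and 7 EMT transcription factors (bottom) in each of the 14 bulk libraries. Most regulators and targets are dark in the 4 lung libraries, where Zeb1 and Zeb2 are lighter, and Cldn7 and Ap1m2 are dark in the LN and BM libraries, in which Grhl2 and Cldn3 are lighter.

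EMT transcription factors were mostly higher in lung CD44low and were mixed in lung CD44high. Of 7 tested, 5 were called higher in lung CD44low than in MFP, and 3 higher and 1 lower in lung CD44high, where 11.2% and 5.42% of all genes were called higher. Their median difference was 3.01 and 0.18 in these groups. Of the 7, Twist2 passed the filter only through lung CD44low, and the tested count and the median there include it. Zeb1, a direct repressor of Cdh1, was at 46.1 and 50.0 TPM in lung CD44low and 58.6 and 38.6 TPM in lung CD44high, against 0.6 and 0.2 TPM in MFP, a rise of 5.14 ± 0.47 and 5.13 ± 0.47 (adjusted p = 1.5e-05 and 2.65e-05). In LN and BM libraries Zeb1 was 1.3 to 9.2 TPM, called higher in LN CD44low and BM CD44low by 2.08 and 2.07. The LN CD44low call was lost without LN CD44low replicate 2, MFP replicate 1 or MFP replicate 2 (1.99, 2.29 and 1.87). The BM CD44low call was lost without BM CD44low replicate 2 or MFP replicate 2 (1.26 and 1.86) and in the fit of only the groups compared (adjusted p = 0.11). Prrx1, a mesenchymal homeobox factor, was called higher in LN and BM lines too, by 3.18 to 3.84, and in the same libraries Grhl2 and Esrp1 were not called. Snai1 differed between the lung lines: 58.4 and 50.6 TPM in lung CD44low, against 0.1 TPM or less in lung CD44high, a fall of 5.74 ± 0.44 (adjusted p = 5.94e-06).

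Other splicing factors moved in both directions. Of 9 tested, 3 were called higher and 1 lower in lung CD44low against MFP, and 1 lower in lung CD44high, with a median difference of 1.01 and -0.08. The share of all genes called was 11.2% for rises and 7.62% for falls in lung CD44low, and 8.03% for falls in lung CD44high. Rbm47, an RNA-binding factor of epithelial cells that the list held with the mesenchymal ones, fell from 19.6 and 20.7 TPM in MFP to at most 0.49 TPM in lung, and was called lower in both lung groups. Rbms3, an RNA-binding factor of stromal cells, had 19.2 and 24.1 TPM in lung CD44low and at most 0.7 TPM in every other library. It passed the filter only through lung CD44low and is 1 of the 3 counted as higher there, so that count partly follows from the filter. Among 6 genes whose exons the ESRPs choose, Fgfr2 was called higher in lung CD44low (24.5 and 40.4 TPM against 1.0 and 1.0 in MFP), and Cd44 lower in both lung groups, both BM groups and LN CD44high. The Cd44 calls in BM CD44high and LN CD44high were lost under median-ratio scaling (-1.95 and -1.96), and that in BM CD44low without BM CD44low replicate 1 or MFP replicate 1 (-1.94 and -1.85). The gene-level values say nothing about which exons were used.

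Among 12 other epithelial regulators, 7 were tested. Their median difference from MFP was -1.99 in lung CD44low (3 called lower) and -0.39 in lung CD44high (1 called lower, 1 higher). Of all tested genes, 7.62% were called lower in lung CD44low, and 8.03% lower and 5.42% higher in lung CD44high. The median of all tested genes was 0.00 and -0.04 in these groups. Tfap2c, an AP-2 factor, had the pattern of Ehf: 3.9 and 1.7 TPM in MFP, 5.7 to 40.3 TPM in LN and BM, and it was listed at 0 in all 4 lung libraries. It was called higher than MFP in 3 of the 4 LN and BM groups, by 2.62 to 3.14. Gata3, the luminal master factor, did not follow the list: it had 41.4 and 36.6 TPM in MFP, 1.1 to 4.1 TPM in LN and BM, 2.1 and 2.0 TPM in lung CD44low, and 187 and 305 TPM in lung CD44high, where it was called higher than MFP by 2.59 ± 0.41 (adjusted p = 0.000828).

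The genes whose profile was most like each regulator were taken by the Pearson correlation of log2(TPM + 1) over the 14 libraries. These values are descriptions: 4 of the 14 libraries are the lung lines with the epithelial genes near 0, so the contrast of lung with the rest enters each r. Most like Grhl2 were Tmem54 (r = 0.988), Cldn3 (0.988) and Lsr (0.984), and most like Esrp1 were Shtn1 (0.989), Padi2 (0.984) and Lad1 (0.983). Ehf was most like Tfap2c (0.978), Elf3 most like Kdf1 (0.978) and Krt14 (0.975), and Klf5 most like Cgn (0.976), which encodes the tight junction protein cingulin. Trp63 was most like Herpud1 (0.952), a gene of the endoplasmic reticulum stress response. The mean profile of the 10 regulators was most like Shtn1 (0.981), Cdh1 (0.980), St14 (0.979), Sult2b1 (0.978) and Wnt7b (0.976). Over the 10 libraries outside lung, r with Grhl2 was 0.575 for Tmem54, 0.52 for Cldn3 and 0.322 for Lsr, while the other pairs named here ran from 0.826 (Esrp1 and Lad1) to 0.944 (Klf5 and Cgn).

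In single cells, Esrp1, Grhl2 and Ehf were counted almost only in the LN library, while Klf5 and Esrp2 were counted in all 3. Cells with more than 250 genes and under 10% mitochondrial counts were kept: 2562 in lymphH, 1236 in lungH and 348 in lungL, with 5287425, 2210623 and 2220759 counts and a median of 585, 557 and 4011 counts per cell. Most counts came from a minority of deep cells, since 229, 148 and 162 cells with over 5000 counts held 72.9%, 66.1% and 88.4% of them. Values are counts per 10000 summed over the cells of 1 library, with exact 95% Poisson intervals, or for 0 counts the limit set by 3 counts, which cover counting error only. With 1 library per group there is no test between groups, and the sources used here do not say whether reads of 1 molecule were merged. Unlike TPM, these 3' counts are compared between libraries and not between genes.

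Summed over the 10 genes, lymphH had 1.59 counts per 10000 (1.48 to 1.70), lungH 0.683 (0.578 to 0.801) and lungL 0.680 (0.576 to 0.797). Epcam had 936 counts in lymphH, 3 in lungH and 0 in lungL, and the 10 fibroblast markers had 0.132, 0.669 and 22.1 counts per 10000 in lymphH, lungH and lungL. The low Epcam of the bulk lung lines was thus also seen in these libraries.

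Esrp1 had 171 counts in 109 lymphH cells, or 0.323 per 10000 (0.277 to 0.376), and no count in either lung library, which allows up to 0.0136 per 10000 in lungH and 0.0135 in lungL (3 counts). Grhl2 had 115 counts in 84 lymphH cells, 1 in lungH and 0 in lungL, a ratio of 48.1 to lungH (counting interval 8.46 to 1915). Ehf had 80 counts in lymphH, or 0.151 per 10000 (0.12 to 0.188), and none in the lung libraries. Elf3 had 15 counts in lymphH, Ovol2 had 9, and neither was counted in lung, while Ovol1 had 18 in lymphH, 0 in lungH and 2 in lungL.

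Klf5 and Esrp2 were counted in all 3 libraries. Klf5 had 0.528 per 10000 in lymphH (0.468 to 0.593), 0.398 in lungH (0.319 to 0.490) and 0.477 in lungL (0.391 to 0.577), from 279, 88 and 106 counts in 168, 47 and 52 cells. The ratio of lymphH to lungH was 1.33 (1.04 to 1.70) and that of lymphH to lungL 1.11 (0.881 to 1.40). In the bulk libraries the same groups differed far more, since Klf5 had 5.05 and 3.68 TPM in LN CD44high and 0.27 to 0.78 TPM in lung. Esrp2 had 0.235 per 10000 in lymphH, 0.199 in lungH and 0.153 in lungL, with a ratio of lymphH to lungH of 1.18 (0.829 to 1.70) and to lungL of 1.53 (1.04 to 2.31). The bulk and single-cell values come from different libraries, chemistries and quantifiers, and what sets them apart was not tested.

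Grhl1 had 30 counts in lymphH, 11 in lungH and 3 in lungL. The ratio of lymphH to lungH was 1.14 (0.555 to 2.52) and that of lymphH to lungL 4.20 (1.31 to 21.5). Trp63 was counted only in the lung libraries: 7 counts in 3 lungH cells, 6 counts in 3 lungL cells and 0 in lymphH, or 0.0317 per 10000 (0.0127 to 0.0652) in lungH, while 0 counts in lymphH allow up to 0.00567 (3 counts). These counts rest on 3 cells per library. Zeb1 was counted in all 3 libraries, with 0.176 per 10000 in lymphH, 0.656 in lungH and 1.31 in lungL, and Cdh1 had 196 counts in lymphH and none in either lung library. Spint2 had 0.204 per 10000 in lungH (0.148 to 0.272), 0.153 in lungL (0.106 to 0.214) and 1.94 in lymphH, and Cd24a had 6.33, 4.18 and 8.19, so the wide gap of these genes between the bulk lung lines was not seen here.

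**Figure D4:**
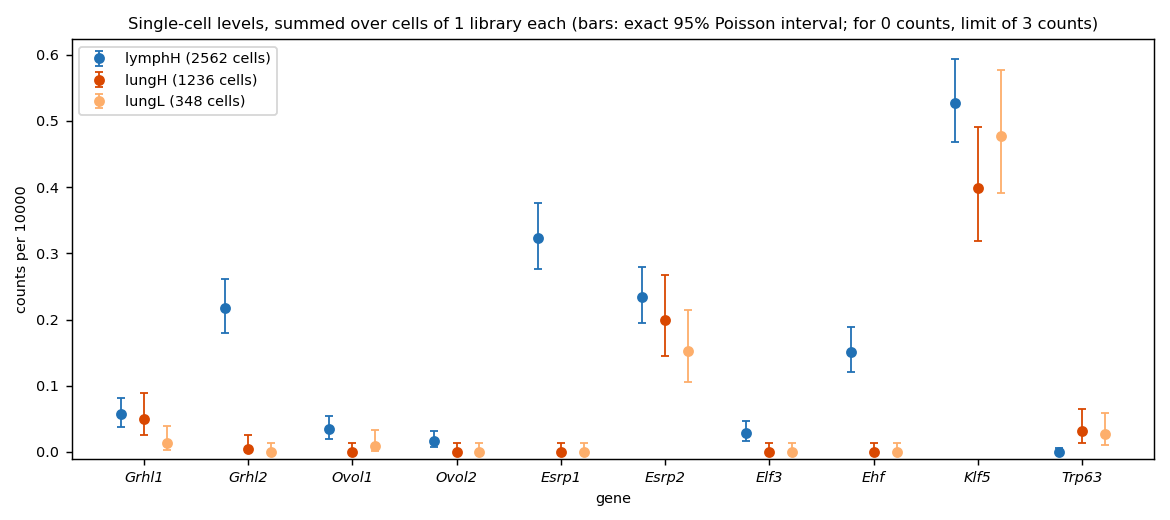
Counts per 10000 of each regulator, summed over the kept cells of lymphH, lungH and lungL (1 library each), with exact 95% Poisson intervals as bars (for 0 counts, up to the limit set by 3 counts). Esrp1, Grhl2 and Ehf are counted in lymphH and lie at or near 0 in both lung libraries, while the intervals of Klf5 and Esrp2 overlap between lymphH and lungH.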

How the data were processed

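Bulk RNA-seq libraries (modified SMART-seq2) were aligned by the authors with STAR to mm10 and quantified with RSEM on GENCODE v21, and TPM values were deposited. All 55450 identifiers matched GENCODE M21. The study gives only a minimum depth for these libraries and read totals are not used here, so the counting error of low TPM was not computed. The authors' own edgeR comparisons are not used. Groups followed the labels. Here, log2(TPM + 1) was fitted with limma 3.58.1 (trend=TRUE, R 4.3.3) with a mean for each of the 7 groups (7 residual degrees of freedom). Tested on simulated data over 15348 genes, the fit recovered 83.5% (lung CD44low against MFP) to 97% (lung against LN and BM) of 200 genes given a log2 shift of 3 in the 10 group comparisons, but 69% and 58.5% for the CD44 difference in lung minus LN and minus BM. Deposited single-cell counts (ddSeq SureCell, kallisto on mm10) were summed with Python 3.11.15 and exact intervals from scipy 1.17.1. Cells carry numbers without barcode sequences, so barcodes shared between libraries could not be counted. No doublet caller was run and cells were not clustered. The 10 genes and all lists were chosen with earlier results of these data known. Named genes are the 10, Epcam, Cd44, Cdh1 and Vim, up to the 2 largest called rises and falls of each list and comparison, and the most similar profiles. Krt5, Krt14, Krt17, Ap1m2, Lsr, Cldn3 and other genes shown for their levels were named after their values were seen, as were the pair ratios. Alternatives were another pseudocount, 2 filters, median-ratio scaling, a replicate block, fits of only the groups compared, each library left out and other cell filters, with a call by adjusted p alone added after seeing the data. Some genes of the lists are counted but not reported here by name.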

Additional observations from a re-analysis of the deposited data

Results flagged for a closer look

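The 10 regulators and the 7 tested genes of the list of other epithelial regulators were searched for a CD44 difference in lung that differed from that in LN and BM by the interaction contrast of limma. Gata3 and Tfap2a, which are not among the 10, met this in both, where 10.4% and 8.66% of all genes were called, and genes of the other lists were called too. For Gata3 the CD44 difference in lung exceeded that in LN by 6.42 ± 0.57 (adjusted p = 3.42e-05) and that in BM by 6.47 ± 0.57 (adjusted p = 3.43e-05), on the log2(TPM + 1) scale. For Tfap2a, an AP-2 factor, the excess was 3.99 ± 1.07 over LN (adjusted p = 0.0271) and 4.82 ± 1.07 over BM (adjusted p = 0.0126). As each library was left out, the Tfap2a result over LN was lost in 7 of 14 fits, each without 1 LN or lung library (any but LN CD44low replicate 2), and it was lost with no filter on low TPM (adjusted p = 0.0566). The result over BM was lost in 3 fits, without either lung CD44low library or lung CD44high replicate 1. Tfap2a had 14.9 and 11.2 TPM in lung CD44high and at most 0.1 TPM in lung CD44low, and its BM CD44low libraries were far apart, at 4.1 and 38.4 TPM. None of the 10 regulators met this criterion, and 8 of them were under 1 TPM in every lung library.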

How the results depend on the processing

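The lung counts of called regulators (8 and 9 against MFP) kept within 1.5 times under each alternative run, from 7 to 10. Median-ratio scaling, which moved the median of all genes by 0.02 to 0.38 against MFP, gave 1 call in LN CD44low and 1 in BM CD44high, where 4.48% and 7.34% of all genes were called, and moved the share of higher among all called genes in LN CD44high from 39.9% to 58.6%. It put Grhl2 in LN CD44high at 0.36, where the difference was -0.15 and ran from -0.40 to 0.10 as each library was left out. Ehf in LN CD44low ran from -0.041 to 2.36 in the same way. A pseudocount of 0.1 gave 5 calls in BM CD44high and 10 in lung against LN and BM, where 14.3% and 23.8% of all genes were called. A call by adjusted p alone, added after the data were seen, gave 5 in BM CD44low, 6 in BM CD44high and 10 in lung against LN and BM, where 59.9% of all genes passed. Leaving out each library in turn gave 1 to 4 calls in LN CD44low, 2 to 3 in LN CD44high, 1 to 3 in BM CD44low and in BM CD44high, 7 to 8 in lung CD44low, 7 to 9 in lung CD44high and 5 to 6 in lung against LN and BM. The share of all genes called ran in these fits from 3.92% to 6.17%, 5.19% to 6.34%, 5.84% to 11.7%, 6.67% to 7.96%, 16.2% to 19.3%, 11.9% to 14.2% and 12% to 14.1%. It gave 0 to 1 between CD44high and CD44low in LN and in BM, where the share of all genes called ran from 0.0786% to 0.655% and from 0.0462% to 6.36%, 0 in lung (7.74% to 11.9%), and 0 to 1 in the comparisons of CD44 differences with LN (6.26% to 12.6%) and BM (5.37% to 11.8%). The cause of these changes was not tested. Differences between replicates 2 and 1 correlated weakly between groups (-0.19 to 0.17, with 3 of 21 above 0.1). The labels do not say whether libraries with the same number share a mouse, and this check cannot tell. The replicate block left the counts at 2, 3, 2, 3, 8 and 9 against MFP and 5 in lung against LN and BM. The summed single-cell levels stayed inside their counting intervals under each cell filter tried. The study gives a minimum read depth and no total per library is used here, so the counting error of low TPM was not computed. Shifts smaller than 3 on the log2 scale, falls, and shifts of genes with a mean log2(TPM + 1) of 3 or less were not simulated.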
